A study of Nothobranchius furzeri with 20 samples.

Results

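The skin of older killifish was set against that of young killifish given other doses of the same compound. The turquoise killifish Nothobranchius furzeri is an annual fish with a short natural lifespan, used to study vertebrate ageing. All fish were males of the strain MZM-04/10p that had received rotenone, a compound that blocks the mitochondrial NADH dehydrogenase, known as complex I. The older group holds 5 libraries from fish of 27 weeks given rotenone at 1% of LC50, the median lethal concentration. It was compared with 5 libraries at 9 weeks and 10% of LC50 and with 5 at 9 weeks and 0.1% of LC50. These are 15 of the 20 libraries of the series, chosen by the age and dose in the labels. The remaining 5, from fish of 9 weeks at 1%, are in none of the contrasts. They were added to the fit in 1 alternative and entered the scaling factors behind all CPM values. Otherwise they are quoted as further values. The question is which transcripts differ with age under rotenone when the young fish of the matching dose are left aside.

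Age and dose differ together in this design. The older fish had 1% and the younger fish 10% or 0.1%, so a difference between the groups belongs to age, to dose, or to both, and the 3 groups alone cannot tell these apart. Weighting both young doses equally places 1% between a higher and a lower dose. It does not remove a response that is strongest or weakest at 1%. Nor does it remove any other in which the level at 1% is not midway between both doses, such as a response at 10% only. The labels list no untreated fish.

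Skin of teleost fish is a layered epithelium with mucous cells, over a dermis that holds scales, pigment cells, vessels and nerve endings. Bulk RNA sequencing averages over all of them, so fewer cells of a type and less RNA per cell cannot be told apart. Ageing of skin in vertebrates is known for changes in the renewal of the epithelium, in the extracellular matrix and in resident immune cells. The files list genes by identifier and do not pair identifiers with names. Of 26739 identifiers 0 matched the RefSeq gene table for assembly NfurGRZ-RIMD1, so no pathway, cell type or sequence is described, and the tissue label was not checked against marker genes.

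Library totals of the 15 libraries lay between 21977356 and 29017737 reads counted on genes, and 23423536 to 27739914 at 27 weeks. The 10% libraries share a count table with the 27-week libraries, while the 0.1% libraries were deposited in a second table. Libraries that stand apart were found among the young fish. On the first principal component of the 15 libraries, with 30.9% of the variance, replicates 1 and 4 at 0.1% lay at 125 and 99.5, and the other 13 between -37.2 and 27.6. On the second, with 19.4% of the variance, replicates 1 and 2 at 10% lay at 97.2 and 65.7. The 5 libraries at 27 weeks lay between -37.9 and -29.1 there, below all 10 young libraries, the lowest of which was replicate 4 at 0.1% at -25.1.

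Libraries at 27 weeks deviated less from their own group, on average, than the young libraries of the comparison. The labels do not state that libraries come from separate fish, so this is a spread between libraries. Each library's median absolute deviation from the other 4 libraries of its group, over all genes tested, averaged 0.203 ± 0.0188 log2 units at 27 weeks (SD, n = 5). It averaged 0.24 ± 0.0211 at 10% and 0.337 ± 0.0521 at 0.1%. The difference of -0.0854 between 27 and 9 weeks passed a two-sided exact permutation test over all divisions of the 15 libraries (p = 0.00932, 0.024 when adjusted over 4 values by Benjamini and Hochberg). Ranges at 27 weeks (0.182 to 0.22) and at 10% (0.219 to 0.271) met at their ends, and the young libraries at 1% ran from 0.207 to 0.307. Deviations within a group share libraries, so they are not fully independent. The call was lost without replicate 3 or 4 at 27 weeks (-0.0707 and -0.0696, exact permutation test, adjusted p = 0.0906 and 0.0852). It was kept, with a smaller difference of -0.0369, without replicates 1 and 4 at 0.1% together (exact permutation test, adjusted p = 0.00932). A group with libraries left out is measured against fewer libraries, which by itself raises its deviations. These checks are therefore not like for like. The common biological coefficient of variation of edgeR was 24.2% at 27 weeks, 41.4% at 10% and 45.7% at 0.1%. For the 15042 genes whose mean log2 CPM (counts per 1000000 reads) reached 1, the SD between libraries exceeded 1 log2 unit for 1.42% at 27 weeks, 3.92% at 10% and 6.23% at 0.1%. The median SD was closer, at 0.219, 0.251 and 0.348 log2 units. The SD at 27 weeks was below that at 10% for 60.5% of these genes, and below that at 0.1% for 74.7%. It was the smallest of the 3 groups for 50.8%, where equal groups would give 33.3%. At 9 weeks and 1% the coefficient of variation was 34.1%, and 3.22% of genes exceeded an SD of 1.

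**Figure D1:**
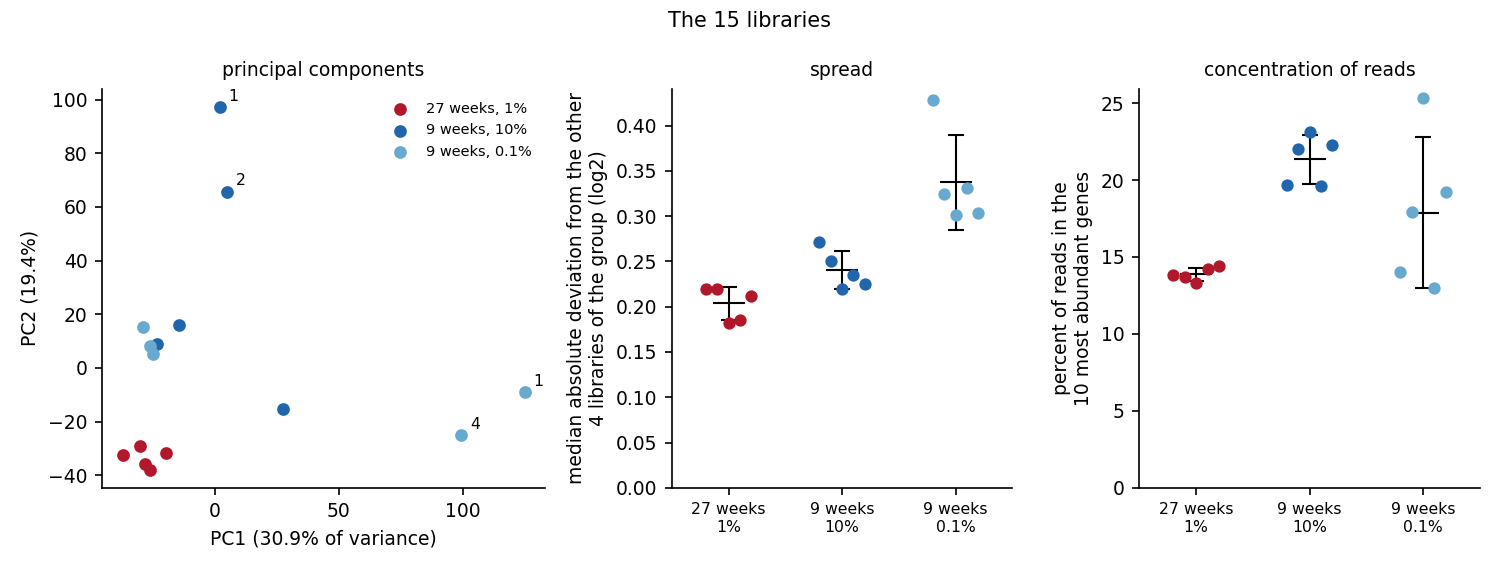
Left, the 15 libraries on their first 2 principal components of log2 CPM, with the replicate number beside libraries beyond 60. Middle and right, the deviation of each library from its group (log2 units) and the percent of its reads in the 10 most abundant genes, with the mean and SD per group: the 5 libraries at 27 weeks lie close together in all 3 panels.

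On average, reads at 27 weeks were also less concentrated on the most abundant transcripts than in the 10 young libraries of the comparison. This did not hold against each of these 10, nor against each young library at 1%. The 10 most abundant genes of a library took 13.3% to 14.4% of reads at 27 weeks, 19.6% to 23.1% at 10% and 13.0% to 25.3% at 0.1%. No library at 27 weeks reached the lowest at 10%, while replicates 1 and 4 at 0.1%, at 14% and 13.0%, lay among or below the older fish. At 9 weeks and 1% these shares were 21.4%, 17.1%, 12.2%, 12.9% and 23.8%, so replicates 3 and 4 there lay below every older library. The difference of -5.72 points passed the exact permutation test (two-sided p = 0.012, adjusted 0.024) and was lost without replicate 3 or 4 at 27 weeks (-5.58 and -5.80, adjusted p = 0.0906 and 0.0852). For the 100 most abundant genes the difference was -5.55 points (exact permutation p = 0.035, adjusted 0.0466), and this call was lost without any 1 of 13 libraries. It was kept without replicate 1 or replicate 4 at 0.1%. The 100 most abundant genes of a library took 33.5% to 35.5% of reads at 27 weeks, 41.9% to 44.5% at 10% and 30.6% to 46.5% at 0.1%. Replicates 1 and 4 at 0.1%, at 31.9% and 30.6%, lay below every older library. So did replicates 3 and 4 at 9 weeks and 1%, at 32.4% and 32.9%. Genes with a read at equal depth averaged 20988 ± 31.2 at 27 weeks, 21138 ± 124 at 10% and 21265 ± 525 at 0.1% (SD, n = 5 each; exact permutation p = 0.213).

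In the comparison of 27 weeks with the mean of both young doses, 1094 genes were higher and 842 lower. They are 5.9% and 4.54% of the 18532 genes tested (quasi-likelihood test of edgeR, p under 0.05 after Benjamini-Hochberg adjustment). Increases were small and decreases larger. The 1094 increases had a median fold of 1.5 (interquartile range 1.35 to 1.76), and 167 exceeded 2-fold. The 842 decreases had a median fold of 2.01 (1.61 to 2.87), with 427 over 2-fold and 124 over 4-fold. For genes with a mean log2 CPM between 3 and 6 the medians were closer, at 1.44 for increases and 1.66 for decreases. At an unadjusted p under 0.05, 2532 genes were higher and 2807 lower. The median log2 change over all genes tested was -0.0321. More genes rose than fell without each library in turn, but not with DESeq2 (1608 higher, 1810 lower) or with a trend on gene length removed (931 and 950). At 27 weeks, omitting replicate 2, 4 or 5 lowered the number called to 1030, 1018 or 965, and 1002, 999 and 934 of those genes were also called with all libraries. Without replicates 1 and 4 at 0.1% it was 2641, and without replicates 1 and 2 at 10% it was 1335.

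**Figure D2:**
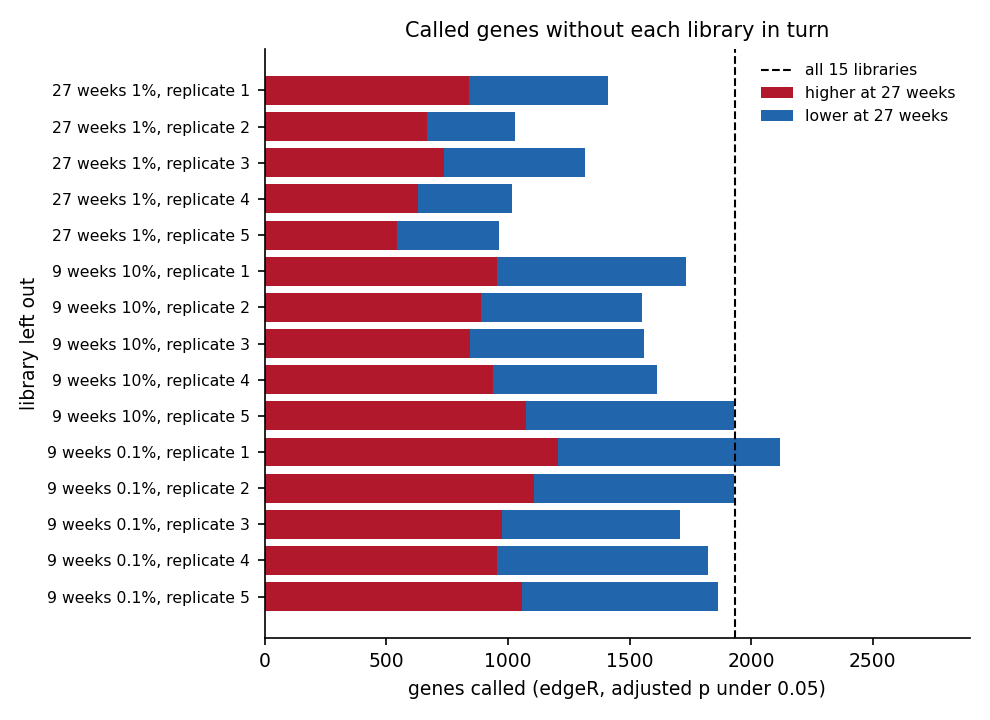
Number of genes called when each of the 15 libraries is left out, split into genes higher (red) and lower (blue) at 27 weeks. The dashed line marks the 1936 genes called with all libraries. Leaving out a 27-week library gave 965 to 1412 and leaving out a young library 1550 to 2118. The contrast weights 27 weeks as much as both young doses together. Fewer calls without an older library are thus partly set by the design.

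Called genes were spread over the whole range of abundance, and the direction changed along it. Between a mean log2 CPM of 3 and 6, 7.78% of the 8604 genes were higher and 3.89% lower at 27 weeks. Below 0, 1.44% of 1946 genes were higher and 5.09% lower, and the median log2 change over all 1946 was -0.402. A gene with few reads can pass the filter on reads through either young group but only the single older group. What this adds to the lower share below 0 was not tested. At 9 and over, 4.02% of 224 genes were higher and 8.93% lower. Decreases at 9 and over had a median fold of 2.57, against 1.66 between 3 and 6. The median fold of decreases was 2.29 between 0 and 3, and largest below 0, at 4.8.

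**Figure D3:**
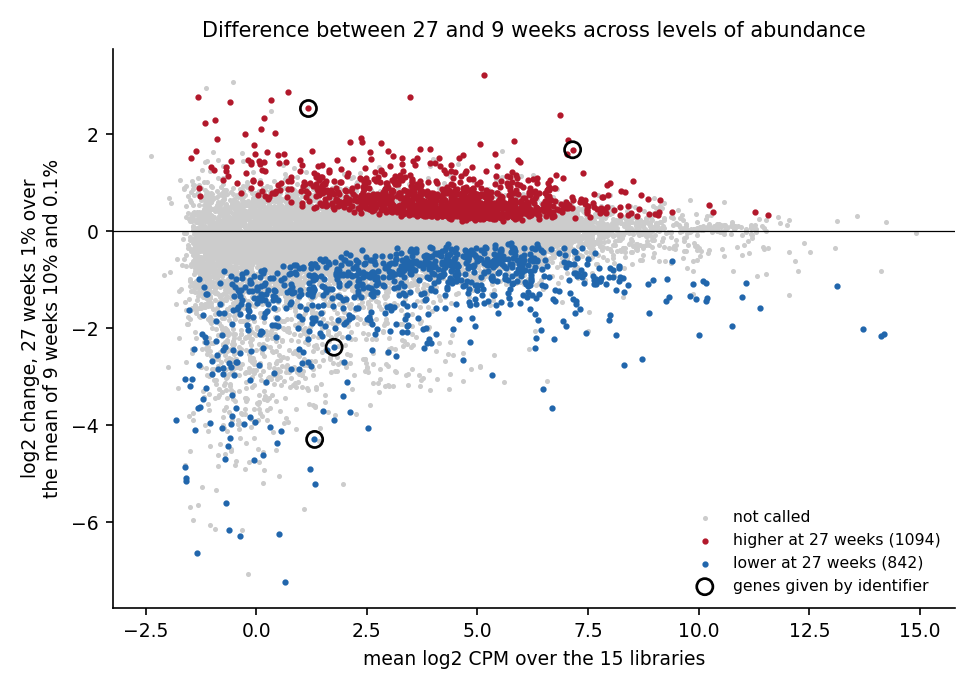
Log2 change at 27 weeks over the mean of 10% and 0.1% at 9 weeks (vertical) against mean log2 CPM over the 15 libraries (horizontal), 1 point per gene. Red and blue points are the 1094 higher and 842 lower genes, grey points were not called, and circles mark the 4 genes given by identifier.

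The genes that fell held a large part of the RNA of young skin. Together the 842 genes took 6.06% ± 1.11 of reads at 27 weeks, 17.2% ± 0.909 at 10% and 14.496% ± 4.57 at 0.1% (SD, n = 5 each). They were chosen on these libraries, so the shares are a description. At 27 weeks the share ran from 4.61% to 7.23%. The young libraries ran from 9.4% in replicate 4 at 0.1% to 21.6% in replicate 3 at 0.1%, with no overlap. A few transcripts made up most of the gap of -9.78 points: the 10 genes that contributed most gave 77.9% of it. These 10 took 2.01%, 2.95%, 3.93%, 4.65% and 4.00% of reads in replicates 1 to 5 at 27 weeks. At 10% they took 12.4%, 13.0%, 14%, 11.4% and 12.7%, and at 0.1% 7.0%, 9.19%, 16.4%, 5.04% and 10.2%. All older libraries were below these 10 young ones, though replicate 4 at 27 weeks, at 4.65%, and replicate 4 at 0.1%, at 5.04%, were close. In the young libraries at 1% the same genes took 13.8%, 9.99%, 4.75%, 4.37% and 14.2%, and replicate 4 there lay within the older range. Fold changes of the 10 lay between 2.10 and 4.48 (edgeR adjusted p from 0.000623 to 0.0491).

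The share of abundant decreases varied more between libraries at 0.1% than at 10% or at 27 weeks. The 20 lower genes in the class of 9 log2 CPM and over took 4.08% ± 1.09 of reads at 27 weeks, 13.8% ± 0.999 at 10% and 10.7% ± 4.56 at 0.1%. Of these 20 genes 15 overlapped between older and younger libraries and 5 did not. Of all 842 lower genes 227 did not overlap, a similar share. The other 822 lower genes took 1.98% ± 0.170 of reads at 27 weeks, 3.35% ± 0.296 at 10% and 3.85% ± 0.0835 at 0.1%. Their SDs were smaller in points of a smaller share, which does not compare the spread relative to the mean. Genes that rose took 7.24% ± 0.332 of reads at 27 weeks, 4.05% ± 0.320 at 10% and 4.49% ± 0.549 at 0.1%. Their gain of 2.96 points was spread thinly, and the 10 largest contributors gave 18.4% of it.

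The 5 young libraries at 1%, which were in none of the contrasts, spanned much of the gap. The genes were chosen for a gap between the other groups. A group left out of that choice can fall inside the gap for this reason alone, which was not tested. Genes that rose took 6.82% to 7.75% of reads at 27 weeks, 5.15% to 7.16% at 9 weeks and 1%, and 3.63% to 5.01% in the 10 other young libraries. Replicate 4 at 9 weeks and 1%, at 7.16%, reached the range of the older fish. Genes that fell took at most 7.23% of reads at 27 weeks, and 18.1%, 14.6%, 8.37%, 7.84% and 17.8% in replicates 1 to 5 at 9 weeks and 1%. Replicates 3 and 4 there lay just above the older fish, and the other 3 among the young ones.

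**Figure D4:**
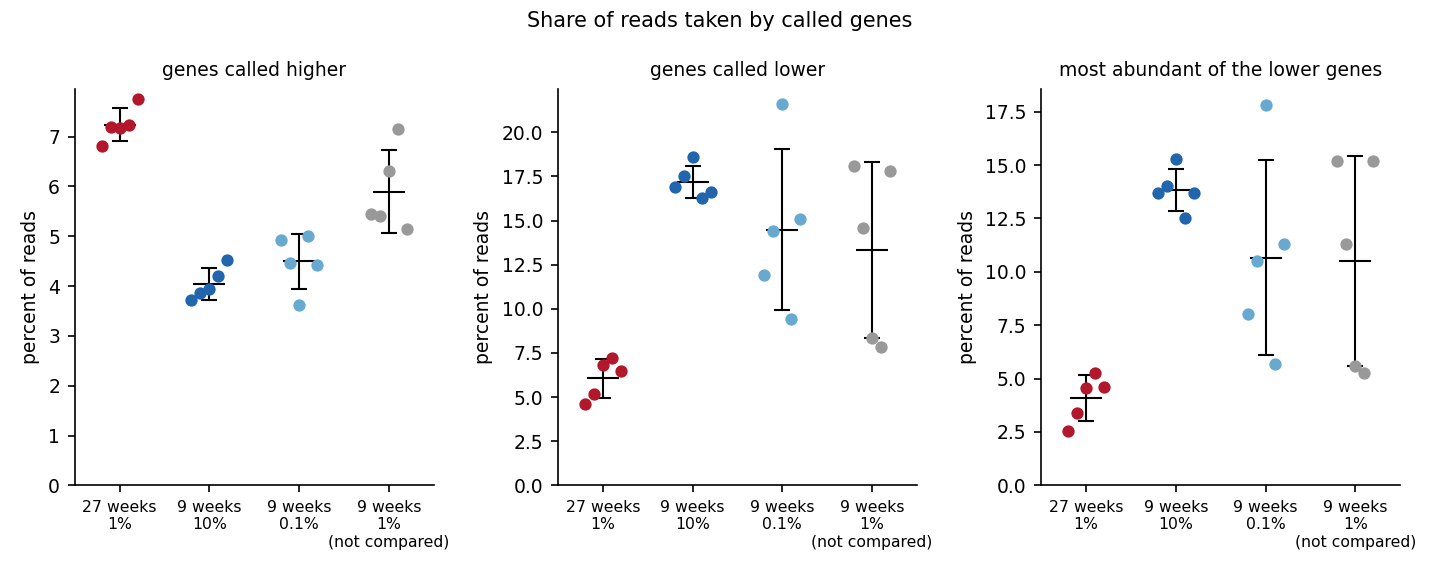
Percent of reads taken in each library by the 1094 higher genes, the 842 lower genes and the 20 most abundant of the lower genes, with the mean and SD of each group. Grey points are the 9-week libraries at 1%, not used in choosing genes; their mean lies between those of the older fish and of the young fish at 10%, with replicates 3 and 4 low in the middle and right panels.

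As a median over the called genes, too, the young 1% libraries lay between. For how many single genes this held was not counted. Genes that rose stood a median of 0.592 log2 CPM above the mean of the 10% and 0.1% groups at 27 weeks, and 0.411 above it in the 9-week 1% libraries. Between 27 and 9 weeks at 1% the median difference was 0.181. For genes that fell the medians were -0.963 at 27 weeks, -0.422 at 9 weeks and 1%, and -0.497 between the ages at 1%. Over all genes tested the same medians were -0.00254, -0.0357 and 0.00261. These differences share libraries with the test that chose the genes and are given as values only.

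Separation was counted without a test. All 5 libraries at 27 weeks lay above all 10 young libraries for 367 genes (1.98% of those tested) and below all 10 for 241 (1.3%). When the 5 young libraries at 1% were added, 54 and 46 genes still had every older library beyond all 15 young ones. That leaves 313 and 195 genes for which at least 1 young library at 1% reached the older range. Adding libraries can only lower such a count. No gene tested had 0 reads in all older libraries and a read in all 10 young ones, or the reverse (0 and 0 genes).

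Set against 10% alone, the comparison within 1 count table, 576 genes were higher and 626 lower at 27 weeks (3.11% and 3.38% of 18532, edgeR adjusted p under 0.05). Increases had a median fold of 1.66 and decreases one of 3.07, and 197 genes fell more than 8-fold. Most of these large decreases rest on a pair of young libraries. In 189 of the 197 the highest library at 10% was replicate 1 (113 genes) or 2 (76 genes). Together these libraries held a median of 92.5% of that group's summed CPM. Without replicates 1 and 2 at 10%, 89 genes were higher and 122 lower, 9 of them more than 8-fold. Only the 10 libraries of these groups in the fit gave 1630 genes (808 higher, 822 lower). Leaving out replicates 1 to 5 at 27 weeks in turn gave 687, 554, 496, 519 and 388 genes. Leaving out replicate 1 or 2 at 10% gave 692 or 584.

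Set against 0.1% alone, 977 genes were higher and 1069 lower at 27 weeks (5.27% and 5.77%, edgeR). Increases had a median fold of 1.58 and decreases one of 2.28, with 134 genes lower by more than 8-fold. In 115 of these 134 the highest library at 0.1% was replicate 1 (110 genes) or 4 (5 genes). For neither dose was the same count made over all genes tested. Without replicates 1 and 4 at 0.1%, 854 genes were higher and 1082 lower, 38 of them more than 8-fold. Of the genes called without both, 1116 (57.6%) were also called with all libraries, which is 54.5% of the 2046 called there. Leaving out replicates 2, 4 or 5 at 27 weeks gave 887, 887 or 1106 genes. As table and dose coincide at 0.1%, a difference between tables and one between groups cannot be told apart here.

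A set of 281 genes was at least 8-fold higher in replicates 1 and 4 at 0.1% than in each of the other 3 libraries of that group. It took 0.0478% to 0.0619% of reads at 27 weeks, 0.244% in replicate 3 at 10%, and 1.83% and 1.24% in replicates 1 and 4 at 0.1%. In the other libraries at 10% it took 0.0362% to 0.0783%, on both sides of the older fish. In replicates 2, 3 and 5 at 0.1% it took 0.0332%, 0.031% and 0.0284%, below every older library. As it was chosen on libraries at 0.1%, its change against that dose is fixed in part by the choice. There 96 of its genes were called lower and 185 were not called, while 5.77% of all genes tested were called lower. In the comparison with both doses 2 were called lower and 279 of the 281 were not called, against 4.54% lower among all genes tested. The set's median log2 change was -2.42 there, also fixed in part by the choice, and -1.11 against 10%. Genes not called are thus not shown to be unchanged. Its part in other results was not tested.

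The young doses were also set against each other. Between 10% and 0.1%, 0 genes passed an adjusted p of 0.05 in the same fit, with 3598 at an unadjusted p under 0.05, and DESeq2 called 685. The young doses differed by a median of 0.18 log2 units, in either direction, for genes that rose at 27 weeks, by 0.274 for genes that fell, and by 0.241 for all genes tested.

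The 4 identifiers given here, chosen by size and by p among genes without overlap, show what lies behind these counts. Nfu_g_1_008486 had the smallest p among eligible increases (file identifier, counted length about 2725 bases). Its CPM was 275, 258, 363, 258 and 418 at 27 weeks. At 10% it was 83.4, 93.7, 103, 99.1 and 94.6, and at 0.1% 128, 80.5, 86.0, 106 and 97.1. Both young groups lie in 1 range, and the lowest older library, at 258, is well above the highest young one, at 128. The log2 change was 1.68 (SE 0.13, edgeR adjusted p = 5.05e-05), with 1.73 against 10% and 1.64 against 0.1%. At 9 weeks and 1% it stood at 104 to 295 CPM, overlapping the older fish.

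Nfu_g_1_002038 had the largest increase among eligible genes, at a lower level (counted length about 5480 bases). It had 13.3, 8.10, 5.42, 6.69 and 6.72 CPM at 27 weeks. At 10% it had 0.983, 3.29, 0.415, 0.786 and 2.04 CPM, and at 0.1% 2.05, 0.362, 1.03, 1.55 and 1.28 CPM. Every older library exceeded every young one, and replicate 1 at 27 weeks was the highest. The log2 change was 2.53 (SE 0.41, edgeR adjusted p = 0.00286), and 2.28 without that library. The 9-week 1% libraries ran from 0.212 to 6.24 CPM, and replicate 2 there overlapped the older fish. Per length, using the counted length, the level of this gene at 27 weeks was 1.47 ± 0.565 CPM per kilobase, and that of Nfu_g_1_008486 was 115 ± 26.6 (SD, n = 5).

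Nfu_g_1_021982 had the smallest p among eligible decreases (counted length about 8128 bases). It had 1.08, 0.823, 1.60, 1.09 and 0.992 CPM at 27 weeks, from 25 to 40 reads a library. At 10% it had 5.05, 5.71, 6.45, 9.16 and 9.50 CPM, and at 0.1% 5.45, 3.35, 3.94, 4.82 and 6.14 CPM. The log2 change was -2.39 (SE 0.23, edgeR adjusted p = 0.00021), with -2.68 against 10% and -2.10 against 0.1%. Its range at 9 weeks and 1%, 1.66 to 4.36 CPM, also lay above every older library.

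Nfu_g_1_007507 had the largest decrease among eligible genes, and its size rests on 1 library (counted length about 444 bases). It had 0.824, 0.296, 1.64, 0.105 and 0.294 CPM at 27 weeks, from 3 to 41 reads a library. At 10% it had 2.95, 8.79, 2.95, 4.52 and 2.25 CPM. At 0.1% it had 2.33, 152, 13.48, 2.07 and 2.22 CPM, with replicate 2 far above the rest. The log2 change was -4.29 (SE 1.20, edgeR adjusted p = 0.0361), and -2.89 without that library (adjusted p = 0.0249). It was called against 0.1% (-5.80, edgeR adjusted p = 0.0162), while the change against 10% was -2.78 (adjusted p = 0.169). The call was lost without replicate 1, 2, 4 or 5 at 27 weeks (edgeR adjusted p from 0.0707 to 0.0945) and without replicate 2 or 4 at 10% (0.0535 and 0.0501). At 9 weeks and 1% it stood at 2.16 to 9.62 CPM, above every older library.

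**Figure D5:**
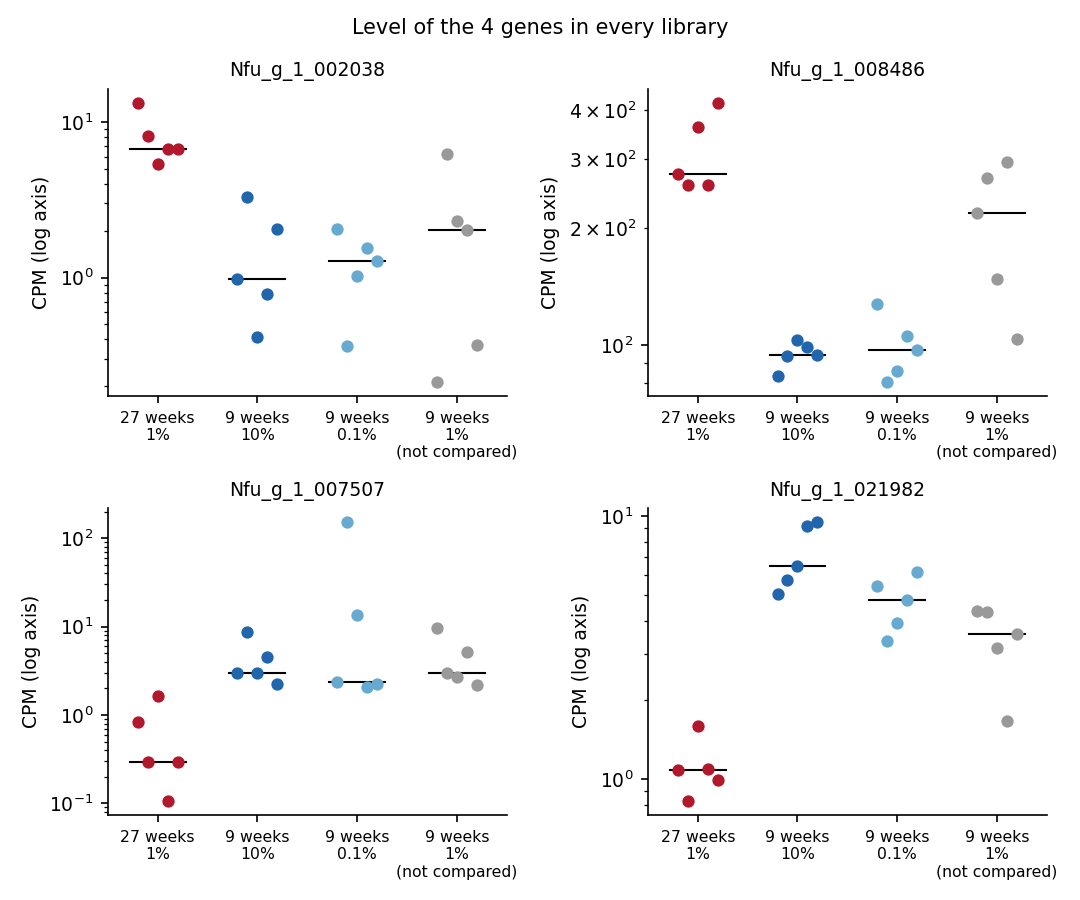
CPM of the 4 genes in every library (log axes, a line at the median of each group). The 5 libraries at 27 weeks lie beyond all 10 libraries at 10% and 0.1% in each panel, as their choice required; the grey 9-week libraries at 1% overlap them for both genes that rose and for neither gene that fell.

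Between 10% and 0.1%, 0 of all genes tested were called, so the same outcome for these 4 is not particular to them. For the 4 genes this difference did not pass the test. It was -0.09 for Nfu_g_1_008486, 0.23 for Nfu_g_1_002038, 0.58 for Nfu_g_1_021982 and -3.02 for Nfu_g_1_007507 on the log2 scale (edgeR adjusted p = 0.788, 0.84, 0.209 and 0.195).

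Counted length was close to that of all genes tested for genes that rose, and longer for genes that fell. Genes that rose had a median of 2697 bases, genes that fell 3132 and all genes tested 2701. In 5 classes of length with equal numbers of genes, 5.45%, 6.13%, 6.24%, 6.41% and 5.4% were higher at 27 weeks, from shortest to longest. This share rose from class to class except in the longest, where it was lowest. The share of lower genes was 3.74% in the shortest class and 5.97% in the longest, which begins at 5312 bases. The median log2 change of the longest class was -0.00787 against 10% and -0.0882 against 0.1%.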

How the data were processed

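Per the labels' protocols, skin RNA libraries were made with a TruSeq kit, and, per the submitters' processing notes, the tools were featureCounts 1.4.6-p4, STAR 2.4.1d and CASAVA 1.8.2. For build, annotation and strandedness a statement is not given in the sources used here; overlapping or near-identical genes may share reads. The deposited counts are raw reads per gene in 2 tables. The authors' deposited RPKM served only to derive the counted length of each gene, found for 99.4% of genes tested. Of the columns holding counts 10, and of those holding RPKM 9, match no sample described here and were not used. Columns were matched by title, and replicate numbers only name libraries. The labels do not state that libraries come from separate fish, so p-values reflect the spread among libraries, which may be technical. No replicates agreed within sampling noise (lowest chi-square per degree of freedom 34.55).

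Tests used R 4.3.3 and edgeR 4.0.16 (TMM, filterByExpr, glmQLFit, glmQLFTest; 1 mean per group; 15 libraries; two-sided). CPM uses TMM factors over 20 libraries, log2 CPM a prior count of 2. SEs come from the change and its F statistic. Single values per library were tested by exact permutation, after thinning to 21977356 reads for genes detected. Alternatives were RLE and upper quartile scaling, no filter beyond 1 read, at least 50 reads in 5 libraries, DESeq2 1.42.0, limma 3.58.1 (voom with weights per group), all 20 libraries, a length trend removed, 1 young group, 10 libraries only, and libraries left out. Identifiers were taken among called genes that reach a mean log2 CPM of 1 and do not overlap the 10 young libraries: the largest change and the smallest p in each direction. As no identifier has a name, planned marker lists were not used. The comparison, its alternatives and this rule were chosen with earlier results of these data known.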

Additional observations from a re-analysis of the deposited data

Results flagged for a closer look

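Of 36 groups of 5 values examined, 3 held a library farther from the rest than Dixon's critical value (0.71 of the range), which chance passes in about 1 of 20 groups. The 100 most abundant genes took 44.5% of reads in replicate 3 at 10%, against 41.9% to 42.2% in the other 4 libraries of that group. The deviation of replicate 1 at 0.1% from its group was 0.428 log2 units, against 0.301 to 0.331 in the other 4. Nfu_g_1_007507 was at 152 CPM in replicate 2 at 0.1%, against 2.07 to 13.48 CPM in the other 4.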

How the results depend on the processing

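The count against both young doses stayed within 1.5 times of 1936 under 11 of 12 other settings (1335 to 2641) and rose to 3418 with DESeq2. DESeq2 also called 2325 genes against 10% and 3630 against 0.1%. Against 0.1%, limma with weights per group called 1253 genes, and a fit restricted to these 10 libraries 1114. Against 10%, 2268 genes were called without replicates 1 and 4 at 0.1%, and 211 without replicates 1 and 2 at 10%. The cause was not tested. Leaving out each library gave 965 to 2118 genes against both doses, 388 to 1556 against 10% and 887 to 2426 against 0.1%. The differences between 27 and 9 weeks then ran from -6.46 to -5.09 points for the 10 most abundant genes, -6.61 to -4.84 for the 100, and -0.0992 to -0.0659 log2 units for the deviation. Without replicates 1 and 4 at 0.1% and replicate 3 at 10% these 3 calls were kept. For the deviation, groups with libraries left out are measured against fewer libraries, so its values are not like for like. Nfu_g_1_008486, Nfu_g_1_002038 and Nfu_g_1_021982 were called under all 27 settings tried for them. Nfu_g_1_007507 was also lost without replicates 1 and 2 at 10% (edgeR adjusted p = 0.0712). No paired analysis was possible because the labels give no replicate numbers that groups share. Counting error was not set apart from the spread between libraries gene by gene, and it weighs more for genes with few reads.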

Other observations

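The deposited RPKM values were not divided by the total of their own library. Count over RPKM, for all 20 libraries, was the product of 1 length per gene and of a divisor that repeats every 35 rows, with a misfit of at most 1.58e-05 (natural log). All 20 library totals were found among the 35 divisors, each to within a relative deviation of 7.08e-06. A value was divided by the total of its own library in 3.29% of cases, and in the remaining cases by another of the 35. Totals of the 20 libraries differ by up to 1.333-fold. With these divisors, each gene's length came out alike in all libraries, to within a relative spread of 0.000184 for values above 5 RPKM.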
